A study of Saccharomyces cerevisiae with 93 samples.

Results

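Alpha-synuclein toxicity was profiled in budding yeast cells that carried 2 copies of the human alpha-synuclein gene and in cells with an empty vector, both exposed to the same small molecule. The 3 arrays described here set 2-copy cells with compound 6, 3 or 4 in Cy5 against vector cells with the same compound in Cy3, after 4 h of induction. They were chosen by title as the number 1 array of each comparison, 1 array per compound, and are 3 of 93 arrays in the series. The arrays they were set against were 6 of 2-copy over vector cells at 4 h without compound, 9 of the same comparison with compounds 1, 2 and 5, and 14 of compound 6, 3 or 4 over no compound within 2-copy cells (5 arrays) or vector cells (9 arrays). Cultures on both sides were grown in galactose, which induces the protein in cells that carry its gene, and RNA came from whole cultures, so that a change in fewer cells and a smaller change in all cells cannot be told apart. The strain is described on the label of 1 other array of the series: a W303 derivative without PDR1 and PDR3, which activate drug pump genes, that carries alpha-synuclein fused to a green fluorescent protein behind a GAL promoter on 2 integrating plasmids. The labels of the 3 arrays name no strain and no dose. The labels could not be checked against alpha-synuclein itself, for which no probe was used here.

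The compounds are related by name. Compounds 3 and 4 share a dihydroquinolinone core with a pair of methyl groups and carry a phenyl ring with 1 bromine and 1 fluorine, and they differ in where those halogens sit on the ring. Compound 6 has a further ring fused to the core, carries its bromine on the core, and has an ethyl group in place of halogens on the phenyl ring; its label names a single stereoisomer, which those of 3 and 4 do not. No source used here gives doses, so a comparison at matched dose could not be made; the time, 4 h, was the same.

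Alpha-synuclein is a membrane-binding protein whose accumulation is linked to Parkinson's disease. In yeast, its overproduction is known to block vesicle traffic from the endoplasmic reticulum (ER) to the Golgi, to disturb mitochondria and to induce stress genes. The unfolded protein response, in which the sensor Ire1 splices the HAC1 messenger, raises ER chaperones when proteins fail to fold. The iron regulon, driven by Aft1 and Aft2, and the phosphate regulon, driven by Pho4, raise uptake of those nutrients when cells sense too little of them.

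All values are log2 ratios, so that 1 is a doubling in 2-copy cells and 0 is no difference. The arrays of compounds 6, 3 and 4 had standard deviations (SDs) over 6377 probes of 0.618, 0.494 and 0.496, and the untreated arrays of 0.603 to 0.719. Their medians were at most 0.0049 from 0. Numbers 2 and 3 of the same titles were left out because their probe rows look out of step with every other array: each correlated with its own number 1 at only 0.172 to 0.214 across probes and with the untreated mean at 0.160 to 0.221, while numbers 2 and 3 correlated with each other at 0.706 (compound 3), 0.713 (compound 4) and 0.897 (compound 6). The number 1 arrays correlated with the untreated mean at 0.874 (compound 6), 0.726 (compound 3) and 0.768 (compound 4). Another 4 arrays, of compounds 6, 3 and 4 in 2-copy cells, were left out for the same reason on the basis of an earlier look at these data. Since each member is a lone array, it was assumed to vary like the replicated groups of the fit, and no p-value below has a replicate of that array behind it.

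The first question was what 2-copy and vector cells still differ in when both receive compound 6, 3 or 4. Many genes of the cell wall, ER folding, heat shock, iron and phosphate uptake were higher in 2-copy cells, and genes of mitochondrial protein synthesis and of mating type alpha were lower. The mean of the 3 arrays differed from 0 for 2469 of 6377 probes, 38.7% of those tested (limma with Benjamini-Hochberg adjustment over all probes, adjusted p under 0.05), with 1337 (21.0%) higher and 1132 (17.8%) lower; 2445 of the 2469 had 1 sign on all 3 arrays. Without the compound 6 array the count was 1502. A log2 ratio of at least 1 in size and 1 sign on all 3 arrays was reached by 220 probes, 3.45% of all, of which 150 were higher and 70 lower. On single arrays, such ratios were reached by 594 probes (9.31%) with compound 6, 345 (5.41%) with compound 3 and 351 (5.5%) with compound 4.

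PIR3 (YKL163W), a cell wall glycoprotein, was the highest on average, at 4.14 with compound 6, 4.06 with compound 3 and 4.17 with compound 4. The 3 values lay close together and just under the untreated arrays at 4.25, 4.54 and 4.85 (lowest, median and highest). The mean of 4.12 ± 0.33 (SE) was past the threshold (limma adjusted p = 5.27e-15), while the difference from no compound was not (-0.41 ± 0.41, adjusted p = 0.592). PST1 (YDR055W), another cell wall protein, likewise stood at 2.69, 3.00 and 3.03 with compounds 6, 3 and 4, inside its untreated range of 2.66 to 3.41. TIS11 (YLR136C), an RNA-binding protein that degrades messengers of iron-using proteins, had 3.05, 3.39 and 3.26, also inside the untreated range of 2.09 to 3.54.

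ULI1 (YFR026C), whose messenger rises when proteins misfold in the ER, was 5.30 with compound 6, 2.94 with compound 3 and 3.61 with compound 4. The compound 6 value lay inside the untreated range of 4.96 to 5.83 (median 5.45), and those of compounds 3 and 4 lay below it. KAR2 (YJL034W), the main ER Hsp70 chaperone, repeated that order with 4.03, 1.87 and 2.45. Here compound 6 lay above the untreated range of 3.31 to 3.83 and compounds 3 and 4 below it. HSP26 (YBR072W), a small heat shock protein, had 4.29, 2.24 and 2.81, all below the untreated arrays at 4.74, 5.51 and 6.06 (lowest, median and highest).

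PHO84 (YML123C), the high-affinity phosphate transporter, was 4.22 with compound 6, inside the untreated range of 3.28 to 5.06, against 2.09 with compound 3 and 1.88 with compound 4. FIT2 (YOR382W), a cell wall mannoprotein that retains siderophore iron, ran the other way: it was 1.88 with compound 6, against 4.52 with compound 3 and 4.75 with compound 4. The untreated arrays had 0.31 as their median and 1.60 as their highest value, so all 3 members lay above them. ADE17 (YMR120C), an enzyme of purine synthesis, had 3.88, 3.04 and 2.42, and SNZ1 (YMR096W), of pyridoxine synthesis, had 3.78, 2.59 and 2.07. YPS3 (YLR121C), a cell surface protease, had 3.28, 2.70 and 2.62, and CPP3 (YDR034W-B) had 3.84, 2.16 and 2.22. For YPS3, ADE17 and SNZ1, compound 6 lay above all 6 untreated arrays.

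The lowest genes differed less among compounds. MF(ALPHA)2 (YGL089C), a gene of the alpha mating pheromone, was -2.61 with compound 6, -2.42 with compound 3 and -1.99 with compound 4, below all untreated arrays, whose median was -1.50. CYC1 (YJR048W), cytochrome c, had -1.84, -2.41 and -2.32, inside the untreated range of -2.55 to -1.24. The aconitase ACO1 (YLR304C) had -1.72, -2.28 and -1.93, and RPM2 (YML091C), the protein subunit of mitochondrial RNase P, had -1.60, -2.11 and -1.84, both inside their untreated ranges. The peptide transporter PTR2 (YKR093W), at -1.86, -2.45 and -2.08, lay below its untreated range of -1.31 to -0.81. The mitochondrial chaperonin HSP60 (YLR259C), at -1.64, -1.82 and -1.49, and RAX2 (YLR084C), a protein of bud site selection, at -1.62, -1.77 and -1.57, also lay below their untreated arrays (lowest -1.14 and -1.11). PDH1, HO, CIR2, MAM33 and PUT4 completed the 12 lowest, with means between -1.69 and -1.57.

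**Figure D1:**
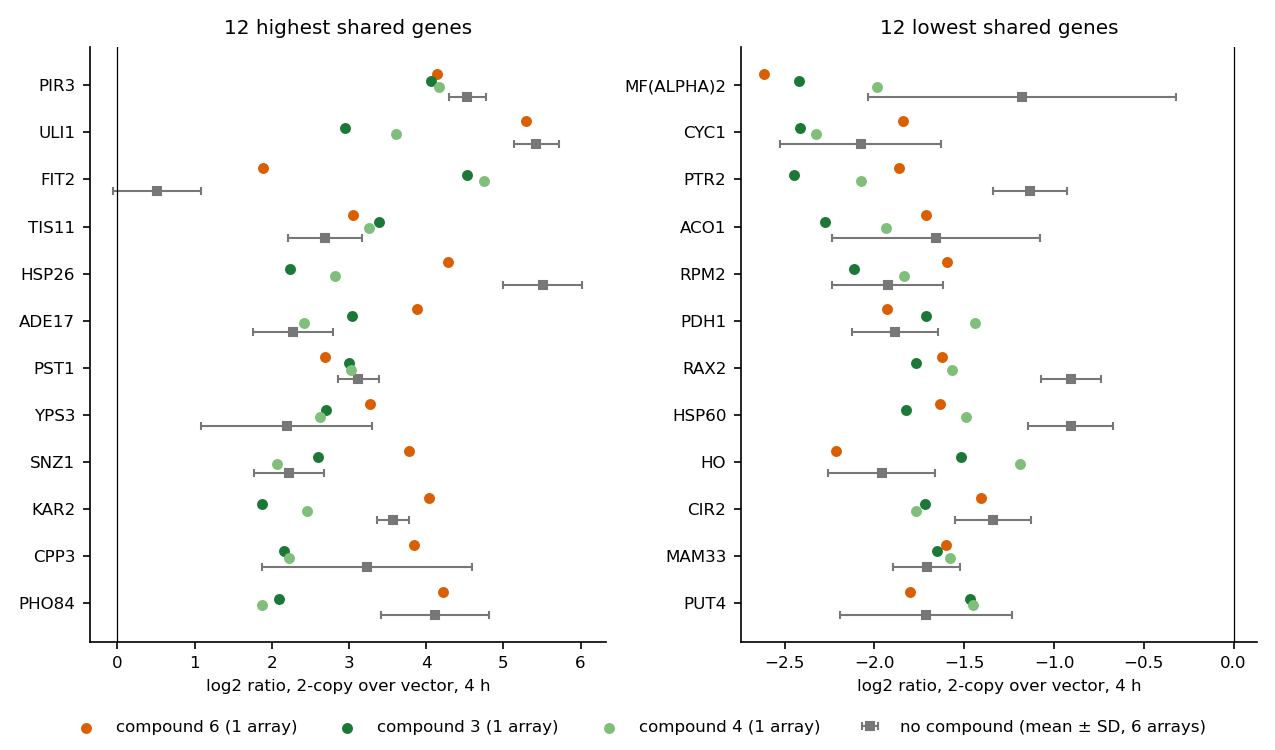
Log2 ratios of 2-copy over vector cells at 4 h (x axes) for the 12 highest and 12 lowest shared genes; circles are single arrays with compound 6, 3 or 4 and grey squares the mean ± SD of 6 untreated arrays. PIR3 lies near 4.1 on all 3 arrays, KAR2 and ULI1 are lower with compounds 3 and 4 than with compound 6, and FIT2 is higher.

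By gene list, 70 of the 71 genes of the mitochondrial ribosome measured passed the threshold as lower and 0 as higher, with list medians of -0.94, -0.92 and -0.83 with compounds 6, 3 and 4, inside or just above the untreated range of -1.17 to -0.84. Of 37 genes of the respiratory chain and ATP synthase 28 fell, with medians of -0.57, -0.51 and -0.39. Of 22 cell wall integrity genes 19 rose and 0 fell, with medians of 1.27, 1.47 and 1.36 (1.35 on the lowest untreated array). The glucan synthase GSC2 (YGR032W) had 2.66, 1.53 and 1.71 among them. Of 30 general stress genes under Msn2 and Msn4, 23 rose, and of 36 proteasome genes 22 rose and 0 fell. On the ER chaperone and unfolded protein response list 13 of 20 genes rose and 0 fell, and of 15 genes of ER-associated degradation 7 rose. Of 24 cytosolic heat shock genes 11 rose and 1 fell, of 28 iron regulon genes 19 rose and 1 fell, and of 18 phosphate regulon genes 8 rose and 0 fell. All 5 genes of mating type alpha and HO fell, as did 11 of 13 genes of daughter cell separation. Of 132 cytosolic ribosomal protein genes 35 fell (26.5%, against 17.8% of all probes called lower and 21.0% called higher), with medians of -0.34, -0.20 and -0.24. Beside these, the medians over all probes were 0.0001, 0.002 and 0.0049. Divided by each array's own spread, the medians of the mitochondrial ribosome became -0.58, -0.74 and -0.66, so the order of the compounds turned there.

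The second question was how these arrays differ from 2-copy over vector cells without compound. On the mean of the 3 arrays, some cytosolic heat shock genes and single stress genes such as HSP12 were lower than without compound, and siderophore iron genes were higher. The heat shock list median with compound 6, 0.60, lay inside the untreated range of 0.43 to 0.94. Those with compounds 3 and 4, 0.16 and 0.22, lay below it. The mean of compounds 3, 4 and 6 minus no compound passed the threshold for 458 probes by limma, 7.18% of 6377. Higher were 200 (3.14% of all probes) and lower 258 (4.05%). For 383 of the 458 the difference ran against the sign of the untreated mean. That mean enters both sides of this comparison, which favours opposite signs, and the share over all probes was not computed. No conclusion is drawn from it. The count of 458 rested on the members unequally: it was 94 without compound 3 and 154 without compound 4, and 481 without compound 6. With every array divided by its own spread it was 21. Taken singly against no compound, compound 6 gave 11 calls (0.172%), compound 3 gave 133 (2.09%) and compound 4 gave 75 (1.18%), each from 1 array against 6. By groups that did not overlap, 1268 probes (19.9%) separated the 3 arrays from the 6 untreated ones, and an exact permutation test of 1 such gene cannot give a two-sided p under 0.0238. A total of 274 genes with a symbol met both criteria.

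HSP12 (YFL014W), a membrane stress protein, was 1.74, 0.77 and 1.58 with compounds 6, 3 and 4, against 3.67, 4.10 and 4.52 in untreated cells (lowest, median and highest). The groups did not overlap, and the difference was -2.71 ± 0.55 (SE; limma adjusted p = 0.00079). GND2 (YGR256W), an enzyme of the pentose phosphate pathway, had 1.94, 0.84 and 1.02, against an untreated range of 3.09 to 3.72, a difference of -2.10 ± 0.28 (adjusted p = 1.63e-06). PUT1 (YLR142W), proline oxidase, had 0.62, -0.43 and -0.0055, against 1.10 to 3.23 without compound. HXT5 (YHR096C), a hexose transporter of slow-growing cells, had 1.496, 0.33 and 0.45, against 1.86 to 3.16. GRE1 (YPL223C), a stress-induced hydrophilin, had 2.20, 0.86 and 0.51, against 2.53 to 3.67, and ECM8 (YBR076W) had 0.58, 0.35 and 0.49, against 1.42 to 3.31. THI12 (YNL332W), of thiamine synthesis, had 2.32, 0.93 and 1.13, against 2.95 to 3.66; it belongs to a family of near-identical genes with THI5, THI11 and THI13, whose probes cannot be taken as separate measurements. In these genes compound 6 was the member nearest to the untreated arrays. HSP26 lost its call without compound 3 (adjusted p = 0.0534) and GRE1 without compound 4 (0.0522).

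Of the genes that were higher than without compound, FIT2 had a difference of 3.20 ± 0.60 (SE; limma adjusted p = 0.000329). The siderophore transporters SIT1 (YEL065W), with 1.79, 2.72 and 2.80 on the arrays of compounds 6, 3 and 4 against 0.0565 to 1.15 without compound, and ARN2 (YHL047C), with 1.24, 2.61 and 2.71 against 0.61 to 1.03, followed it. The remaining ones included genes that are low in untreated 2-copy cells. Not all were: HXT1, described below, had an untreated mean of -0.10, and 0.39, 1.35 and 1.30 with compounds 6, 3 and 4. The lactate transporter JEN1 (YKL217W) had -0.54, 0.28 and 0.0045, against -2.70 to -1.35, and the mitochondrial pyruvate carrier subunit MPC3 (YGR243W) had -0.17, 0.0215 and -0.0654, against -3.49 to -1.39. The hexokinase HXK1 (YFR053C), the low-affinity glucose transporter HXT1 (YHR094C) and the maltase MAL32 (YBR299W) were higher by 1.85, 1.12 and 0.99, and each of the 3 lost its call without compound 3 or without compound 4 (limma adjusted p = 0.0759 to 0.126). HXK1 also lost it without compound 6 (adjusted p = 0.0707) or untreated array 1 (0.0776). Fitted to 2-copy over vector arrays at 4 h alone, FIT2, SIT1 and ARN2 missed the threshold (adjusted p = 0.0523, 0.0916 and 0.0603) with the same differences. With all 93 arrays, which put back those left out as out of step, their differences were 0.66, 0.35 and 0.0188. None of the 3 passed there (limma adjusted p = 0.393, 0.456 and 0.962). With every array divided by its spread, PUT1, ECM8 and ARN2 kept their calls and the other 13 of the 16 genes named by rule did not, while all 16 kept their direction.

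By list, 9 of 28 iron regulon genes rose against no compound and 0 fell, and 18 of 132 cytosolic ribosomal protein genes rose and 0 fell. Over all probes 3.14% rose and 4.05% fell. Of 24 cytosolic heat shock genes 7 fell and 0 rose, of 20 ER folding genes 3 fell, of 30 general stress genes 4 fell and 1 rose (medians of 1.38, 0.94 and 1.08, untreated 0.97 to 1.85), and of 19 thiamine and pyridoxine genes 5 fell and 1 rose. The rises among general stress genes (3.33%) and thiamine and pyridoxine genes (5.26%) were near the share over all probes. No gene of the mitochondrial ribosome or the proteasome passed. The cytosolic ribosomal protein medians of -0.34, -0.20 and -0.24 lay above all untreated arrays (-0.99 to -0.36).

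The same difference can be read from arrays that share no hybridisation with these: the response to each compound in 2-copy cells minus that in vector cells. That route passed the threshold for 668 probes, 10.5% of those tested. Of the 458 probes called on the 3 arrays, 352 had the same sign there and 114 were also called. Of the 16 genes named by rule, both routes called HSP26 (-2.39 ± 0.48 on the 3 arrays, -1.31 ± 0.39 on the others), FIT2 (3.20 and 1.55), JEN1 (1.92 and 1.02), THI12 (-1.87 and -1.01) and GND2 (-2.10 and -0.68). They also called the multidrug transporter gene QDR2 (1.18 and 1.00), described below for compound 6. The other 11 did not pass by the other route; HSP12, PUT1, ECM8, MPC3, HXK1 and SIT1 had -0.61, -0.21, -0.14, 0.38, 0.27 and 0.46 there. The gap between both routes was tested too: it passed the threshold for 139 probes (2.18%), among them PUT1 (adjusted p = 0.00381), ECM8 (0.00513) and GND2 (0.0245), and 72 of the 458 calls were among the 139. The 16 genes were chosen for large differences on the 3 arrays, which favours smaller ones by the other route. The cause of the gaps was not tested. Over all probes the routes correlated at 0.232, a description, as probes share arrays and cultures.

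**Figure D2:**
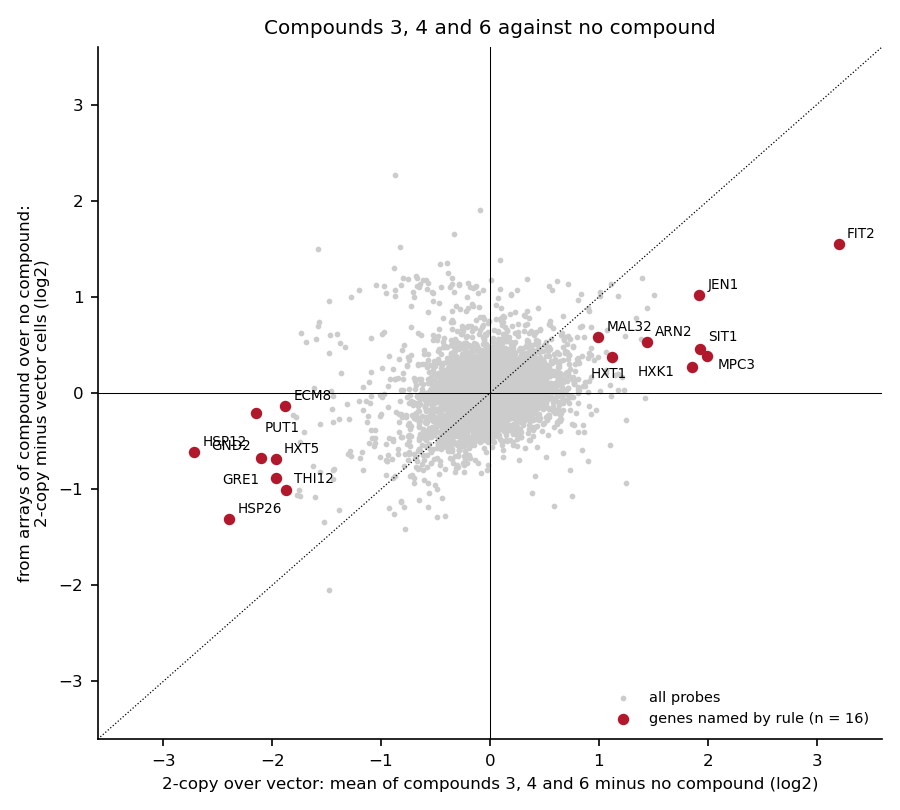
Each point is a probe, with the mean of compounds 3, 4 and 6 minus no compound in 2-copy over vector cells (log2, x axis) and the same difference from arrays of compound over no compound (log2, y axis); the 16 red points are the genes named by rule and the dotted line marks equal values. All 16 lie on the same side of 0 by both routes and closer to 0 on the y axis. They were chosen for large values on the x axis, which favours smaller ones on the y axis.

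The size of the remaining alpha-synuclein response was read on probes chosen from other arrays. On untreated arrays 1 to 3, 258 probes were at least 1 and 77 at most -1 on all 3. The 258 had a median of 1.51 with compound 6, 0.867 with compound 3 and 0.969 with compound 4, and of 1.41, 1.71 and 1.57 on untreated arrays 4, 5 and 6, which did not choose them. In percent of each probe's mean on arrays 4 to 6, the medians were 91.0% with compound 6, 55.2% with compound 3 and 64.6% with compound 4. For comparison, compound 1 gave medians of 0.0877, 0.772 and 0.751 on its 3 arrays, compound 2 gave 0.112, 0.608 and 0.454, and compound 5 gave 0.664, 1.52 and 1.23. The 77 lower probes had medians of -1.15, -0.966 and -0.941 with compounds 6, 3 and 4, and of -1.16 to -1.40 without compound.

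Compound 6 thus lay within the untreated arrays for the higher probes and compounds 3 and 4 below them. Each of these values is from 1 array, and all lie inside the spread of the replicate arrays of compound 5, 0.664 to 1.52. Of the 258 probes, 258, 256 and 257 kept a positive ratio with compounds 6, 3 and 4. When each array was divided by its own spread, the higher probes had medians of 0.929, 0.701 and 0.770 with compounds 6, 3 and 4, and of 0.919 to 0.946 without compound. The lower probes then had -0.703, -0.781 and -0.748, against -0.742 to -0.775, so that their order turned.

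**Figure D3:**
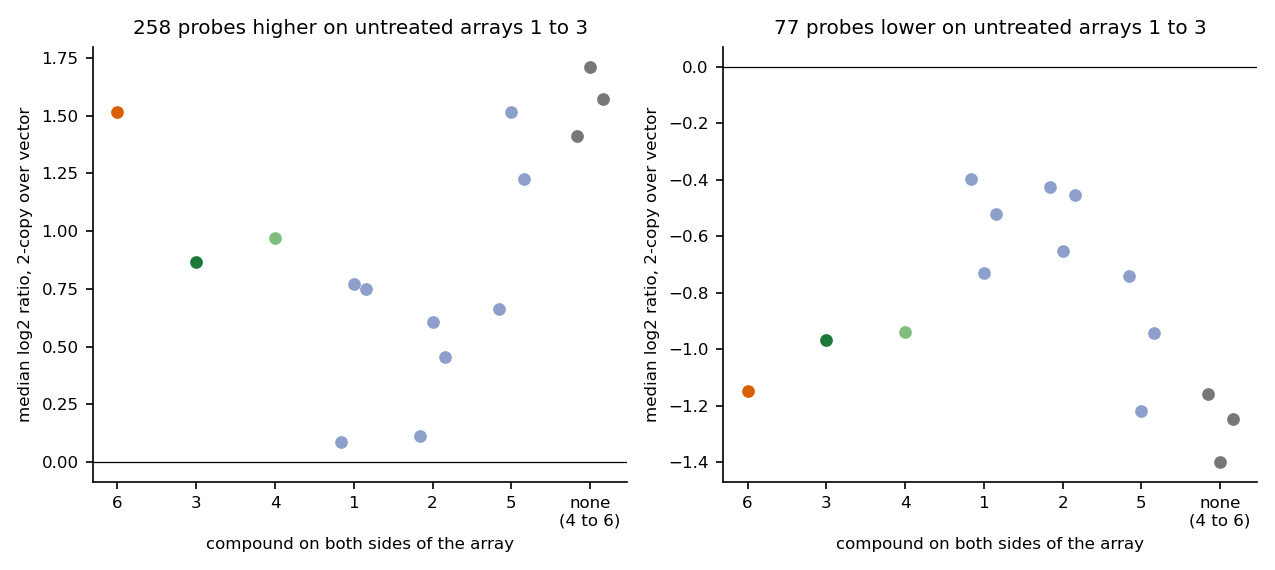
Median log2 ratio of 2-copy over vector cells (y axes) on each array, by the compound present on both sides (x axes), for the 258 higher and 77 lower probes chosen on untreated arrays 1 to 3. Compound 6 reaches 1.51 in the left panel, among the untreated arrays at 1.41 to 1.71, and compounds 3 and 4 stay under 1.

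The third question was how compound 6 differs from compounds 3 and 4. On the 3 arrays alone the difference passed the threshold for 7 probes, 0.11% of 6377, with 7 lower and 0 higher in compound 6 (limma; 187 higher and 84 lower at an unadjusted p under 0.05). With every array divided by its spread the count was 1. The unadjusted 95% interval of this difference reached 0.56 to either side for the median probe. Smaller differences were not detectable there with lone arrays, and a call after adjustment needed a larger one. A difference of at least 1 was reached by 101 probes, most of which did not pass. Of the 7, the one that recurred on other arrays was QDR2 (YIL121W), a plasma membrane multidrug and cation transporter. It was 0.75 with compound 6, against 2.31 with compound 3 and 2.07 with compound 4, and 0.19, 0.51 and 0.97 (lowest, median and highest) without compound. Compound 6 lay inside the untreated range and the other two above it, a difference of -1.44 ± 0.31 (SE; limma adjusted p = 0.0248; 95% interval -2.06 to -0.81). The call was lost without compound 3 (adjusted p = 0.514), without compound 4 (0.0658) or with every array divided by its spread (0.106), and the direction was kept.

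On the arrays of compound over no compound, QDR2 rose in 2-copy cells by 1.94 with compound 3 (1 array) and by 1.84 and 2.05 with compound 4, against 0.0157 and -0.12 with compound 6 on its 2 arrays. In vector cells it was 0.36 to 0.46 with compound 3, 0.38 to 0.44 with compound 4 and -0.21 to 0.14 with compound 6. From those arrays the difference was -1.58 ± 0.30 (SE; adjusted p = 0.0129). This route gave 2 calls in all (0.0314%; 454 at an unadjusted p under 0.05); the other was ZAP1 (YJL056C), the activator of zinc uptake genes, at 1.04 (adjusted p = 0.0234), which lost its call without number 2 (0.619) or number 3 (0.302). On the 3 arrays ZAP1 had 0.95 with compound 6, 0.0373 with compound 3 and 0.22 with compound 4, all below the untreated range of 1.19 to 1.43, and the difference of 0.83 did not pass (adjusted p = 0.196). The 2 arrays of compound 6 in 2-copy cells correlated with each other at -0.406 across probes and had SDs of 0.314 and 0.183, against 0.384 to 0.470 with compounds 3 and 4. Dyes are given on their labels, so the direction was kept. With only number 1 or only number 2 of them the arrays gave 2 and 12 calls, and QDR2 was -1.51 (adjusted p = 0.146) and -1.65 (adjusted p = 0.0229). Without replicate number 2 throughout, it was -1.45 (adjusted p = 0.668).

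The other 6 called probes were lowest on the compound 6 array, with differences near 0 on the other arrays. The probe YML035CA had -3.28 with compound 6, 0.0762 with compound 3 and 0.0485 with compound 4, and the other arrays gave a difference of -0.31. BIK1 (YCL029C), a microtubule-associated protein, had -2.002, -0.0778 and -0.17, with a difference of -0.0207 on the other arrays. HAP2 (YGL237C), a subunit of the activator of respiratory genes, had -1.70, 0.0874 and -0.20, and AXL1 (YPR122W), a protease that matures a-factor, had -0.89, -0.0804 and 0.19, a call lost without compound 4 (adjusted p = 0.0522). Both were at -0.12 or nearer to 0 on the other arrays. YJL015C and YLR279W, at 0.0177 and 0.0379 there, completed the 7. These values rest on 1 array each and their cause was not tested.

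Joined over all arrays of the loops, in a fit of strain and compound effects with a dye term, the compound 6 difference passed the threshold for 114 probes (1.79%), of which 83 were higher and 31 lower with compound 6. This fit includes the 3 arrays, so a call can rest on the compound 6 array alone. Among the 31 were YML035CA, BIK1, HAP2 and AXL1, with -0.31, -0.0207, -0.12 and -0.006 on the other arrays. Of the 101 probes that differed by at least 1 on the 3 arrays, 73 were higher with compound 6 and 28 lower, and the other arrays gave the same sign for 70 and 24 of them. Over all probes, 4551 of 6377 had 1 sign by both routes, and the values correlated at 0.687. The routes share no array, but no source used here says whether they share cultures. Where a gene below is called, it is in this joint fit, since on the 3 arrays alone its difference did not pass. The joint fit has no term for cultures, so arrays that shared a culture would count as independent in its p-values. Departures of same-numbered vector arrays from their group means correlated at 0.387 to 0.668 between compounds 3 and 4. Between compound 6 and either they correlated at -0.0843 to 0.0719. The joint fit counts these arrays as independent, and the effect on the compound 6 difference in that fit was not tested.

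**Figure D4:**
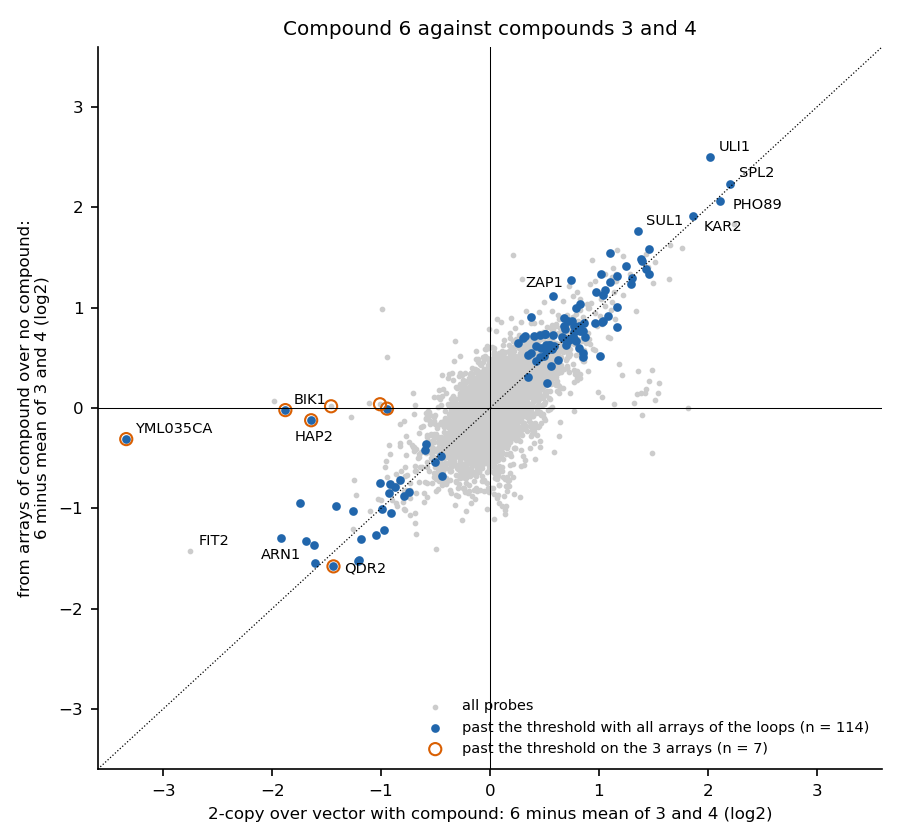
Each point is a probe, with compound 6 minus the mean of compounds 3 and 4 in 2-copy over vector cells (log2, x axis) and the same difference from arrays of compound over no compound (log2, y axis). Blue points passed the threshold in the joint fit (114) and orange rings on the 3 arrays alone (7); QDR2 lies on the dotted line of equal values, while YML035CA, BIK1 and HAP2 lie near 0 on the y axis.

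Folding genes of the ER were higher with compound 6. On the ER chaperone and unfolded protein response list, medians were 1.27 with compound 6, 0.36 with compound 3 and 0.47 with compound 4, and 1.03 to 1.29 on the untreated arrays. Compound 6 lay above both other compounds for 18 of 20 genes, against 41.7% of all probes, and 7 of the 20 passed as higher and 0 as lower in the joint fit. ULI1 differed by 2.24 (adjusted p = 0.00585) and KAR2 by 1.89 (adjusted p = 0.0206). In 2-copy cells, compound 6 over no compound gave KAR2 values of 0.0365 and -0.0183, against -2.19 with compound 3 and -1.88 and -2.11 with compound 4; the 9 vector arrays lay between -0.48 and -0.045. The ER oxidase ERO1 (YML130C) had 2.85, 1.40 and 1.86 with compounds 6, 3 and 4, the exchange factor SIL1 (YOL031C) 1.99, 0.65 and 1.02, and the disulfide isomerase PDI1 (YCL043C) 1.93, 0.71 and 0.79. The ER Hsp70 LHS1 (YKL073W), at 1.63, 0.49 and 0.81, and the J-domain protein JEM1 (YJL073W), at 1.19, 0.48 and 0.36, were among the 7 calls. ERO1, SIL1 and PDI1 did not pass in the joint fit (adjusted p = 0.0704, 0.0895 and 0.234).

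On the ER to Golgi transport list, medians were 0.34, 0.17 and 0.19 with compounds 6, 3 and 4 (untreated 0.26 to 0.43). Of 42 genes 3 passed as higher with compound 6 and 0 as lower: the cargo receptor ERV29 (YGR284C) at 1.63, 0.43 and 0.71, the coatomer subunit RET3 (YPL010W) at 0.96, 0.30 and 0.46, and ERV25 (YML012W), of the p24 cargo complex, at 0.74, 0.24 and 0.13. Compound 6 lay inside the untreated range for each, and compounds 3 and 4 below it. On the ER-associated degradation list, 12 of 15 genes (80.0%, against 41.7% of all probes) were highest with compound 6 and 0 passed (limma), with medians of 0.50, 0.21 and 0.30. Of 24 cytosolic heat shock genes 23 (95.8%, against the same 41.7%) were highest with compound 6, with medians of 0.60, 0.16 and 0.22 (untreated 0.43 to 0.94), and 1 passed, the Hsp110 gene SSE1 (YPL106C) at 0.83, 0.0485 and 0.26.

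The phosphate regulon had medians of 1.11 with compound 6, 0.27 with compound 3 and 0.11 with compound 4, against 0.33 to 1.15 without compound. Of 18 genes 4 passed as higher with compound 6 and 0 as lower. SPL2 (YHR136C), which limits low-affinity phosphate transport, had 2.50, 0.44 and 0.14 (joint difference 2.19, adjusted p = 0.0304). The sodium phosphate symporter PHO89 (YBR296C) had 1.96, -0.17 and -0.15 (2.05, adjusted p = 0.035), and VTC3 (YPL019C), of the polyphosphate polymerase, had 1.49, 0.42 and 0.24 (1.07, adjusted p = 0.0149). PHO84 differed by 2.05 without passing (adjusted p = 0.0931). VTC1 (YER072W), another subunit of that complex, was the fourth call, at 1.29, 0.49 and 0.34 (0.76, adjusted p = 0.0404). For PHO84, SPL2, PHO89 and VTC3, compound 6 lay inside the untreated range and both other compounds below it.

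Genes of the iron regulon were lower with compound 6 than with compounds 3 and 4. List medians were 0.38 with compound 6, 0.98 with compound 3 and 0.91 with compound 4, against 0.15 to 0.52 without compound, and 26 of 28 genes (92.9%, against 38.4% of all probes) were lowest with compound 6. A high iron median was not particular to compounds 3 and 4. The list medians ran from 0.45 to 1.26 with compound 1, 0.41 to 1.35 with compound 2 and 0.24 to 0.68 with compound 5. In the joint fit 4 of the 28 passed as lower and 0 as higher. Among them, the siderophore transporter ARN1 (YHL040C) had 0.75, 2.46 and 2.27 (joint difference -1.57, adjusted p = 0.0139), ARN2 differed by -1.20 (adjusted p = 0.0331), and the mannoprotein FIT3 (YOR383C), with 0.53, 2.05 and 2.25, by -1.46 (adjusted p = 0.0404). ISU2 (YOR226C), a scaffold of iron-sulfur cluster assembly, was the fourth, with 0.12, 1.14 and 0.83. FIT2 differed by -2.10 without passing (adjusted p = 0.115). Against no compound, the median difference of the 28 genes was 0.67 with compound 3, 0.55 with compound 4 and 0.12 with compound 6. Each rests on 1 array against 6. Over all probes these medians were -0.018, -0.015 and 0.0003. The test of the difference between compounds is the one just given.

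Divided by each array's own spread, these lists kept their order: the medians were 0.78, 0.29 and 0.37 for ER folding, 0.68, 0.22 and 0.0871 for phosphate, and 0.23, 0.79 and 0.72 for iron, with compounds 6, 3 and 4.

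The lists not yet described had at most 4 calls each. The thiamine and pyridoxine list had 4 of 19 genes higher with compound 6 in the joint fit, among them THI5 (YFL058W) at 2.32, 0.85 and 1.00 and its near-identical relatives. All 13 genes of daughter cell separation were lower with compound 6 than with the mean of the other two, by both routes, and 0 passed in the joint fit (limma); SUN4 (YNL066W) had -1.63, -1.15 and -1.12, and the chitinase CTS1 (YLR286C) -1.22, -0.65 and -0.64. Of 16 purine and one-carbon genes 14 (87.5%, against 41.7% of all probes) were highest with compound 6 and 0 passed. Their medians were 1.38, 0.84 and 0.69, and the compound 6 value lay above the untreated range of 0.19 to 0.92. The serine hydroxymethyltransferase SHM2 (YLR058C) had 2.98, 1.86 and 1.78 there, and MTD1 (YKR080W), of the folate cycle, had 3.13, 1.58 and 1.40. Cell wall integrity genes had 1 call in each direction, GSC2 (1.08) and the mannoprotein CWP1 (YKL096W, -1.27), and a list median of 0.0489. No gene of the mitochondrial ribosome, respiratory chain, proteasome or cytosolic ribosome lists passed. Over all probes the median of the joint difference was -0.000182.

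**Figure D5:**
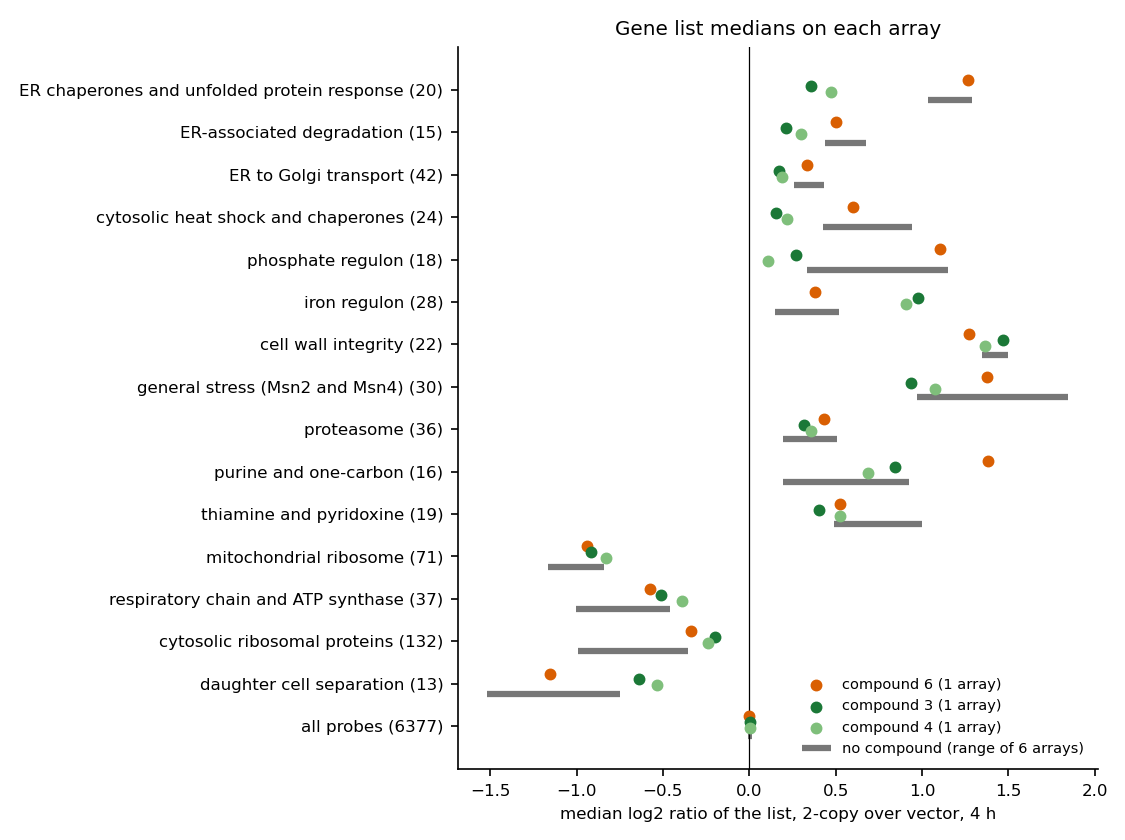
Median log2 ratio of each gene list in 2-copy over vector cells (x axis; number of genes measured in brackets); circles are single arrays with compound 6, 3 or 4 and grey bars the range of 6 untreated arrays. For the ER, heat shock, phosphate and iron lists compound 6 lies inside the grey bar and compounds 3 and 4 outside it.

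In pairs, 3 comparisons were made, with p-values adjusted over probes and pairs. Compound 6 minus 3 passed for 4 probes (0.0627%), compound 6 minus 4 for 5 (0.0784%) and compound 3 minus 4 for 1 (0.0157%). That 1 was RNY1 (YPL123C), a secreted ribonuclease, at -2.87 with compound 3 and 0.87 with compound 4 (difference -3.74 ± 0.55, SE), with compound 6 at 0.82 and the untreated arrays at 0.0264 to 1.37. RNY1 in 2-copy cells over no compound was 0.0742 with compound 3 and 0.20 and 0.47 with compound 4, so the low value stands on 1 array. Compounds 3 and 4, which differ in the placement of halogens, correlated at 0.943 across probes, and their difference had an SD of 0.167 over probes. Compound 6 minus 3 and minus 4 had SDs of 0.328 and 0.312. Replicate arrays without compound differed by SDs of 0.192 to 0.470 in 15 pairs, and those of compounds 1, 2 and 5 by 0.271 to 0.646.

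So the arrays of compounds 3 and 4 differed less from each other than any of those replicate pairs did, and compound 6 differed from both by an amount inside their range. The interval of compound 3 minus 4 still reached 0.65 to either side for the median probe, and 1.06 at the 90th percentile. For KAR2 it ran from -2.28 to 1.12 and for QDR2 from -0.48 to 0.96, so the pair is not shown to act alike. On vector arrays of compound over no compound, same-numbered arrays of compounds 3 and 4 departed from their group means together. Those departures correlated at 0.387 to 0.668, against -0.0843 to 0.0719 for compound 6 with either. Whether such shared variation brought the lone arrays of compounds 3 and 4 together was not tested.

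Genes of the construct and of drug export were read as well. GAL1, GAL10 and GAL7 were between -0.44 and -0.0059 on the 3 arrays, and GAL1 was lower in 2-copy cells (mean -0.38 ± 0.13, SE; limma adjusted p = 0.0137). PDR5 (YOR153W), the main drug pump, was 1.94, 1.61 and 1.66 with compounds 6, 3 and 4, against 1.15 to 1.65 without compound, and its difference from no compound was 0.29 ± 0.21 (adjusted p = 0.452). SNQ2 and YOR1, other pumps, lay between 0.0199 and 0.33 and did not pass. PDR1 and PDR3 lay between -0.23 and 0.16. TRP1 and URA3 are the marker genes of such integrating plasmids. TRP1, at 1.66, 1.73 and 1.71, and URA3, at -1.16, -0.87 and -0.57, differed between the strains on all 3 arrays. PRM1 (YNL279W), a membrane fusion protein of mating, was 0.20 with compound 6, against 1.47 and 1.44 with compounds 3 and 4 (joint difference -1.21, adjusted p = 0.0625).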

How the data were processed

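Each array holds 1 log2 ratio per probe, as deposited; the authors normalised it with limma, per the submitters' processing notes. No source used here gives the version, the background correction or the normalisation method. Scale, centring and direction are unstated. Label order, limma's convention and the values were taken to mean that Cy5 is on top. There were no dye swaps, and intensities were not used here. Per the labels, a comparison had 3 pairs of biological replicates. Of 6377 probes, 5644 matched a locus tag, 196 matched after a hyphen was added and 537 matched none.

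Group means were fitted to 83 arrays in 30 groups with limma 3.58.1 in R 4.3.3, two-sided, with Benjamini-Hochberg adjustment over probes and 57.6 degrees of freedom; the fit was tested on simulated data. Errors are the SE of the fit. The joint fit has strain and compound effects and a dye term. Named genes were the 12 highest and 12 lowest shared, 8 and 8 against no compound, up to 10 and 10 for compound 6, up to 5 per list by size, and fixed genes. ZAP1, VTC1, ISU2, LHS1, JEM1 and the probes without a symbol were named after their values were seen. Members and lists were chosen with earlier results of these data known. Residuals of same-numbered vector arrays with compounds 3 and 4 correlated at 0.387 to 0.668. Those of vector arrays with compound 6 and with compound 3 or 4 correlated at -0.0843 to 0.0719. Those of 2-copy and vector arrays correlated at -0.00324 to 0.174, so the replicate number was an alternative.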

Additional observations from a re-analysis of the deposited data

Results flagged for a closer look

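For some genes named above, 1 of the 6 untreated arrays stood apart from the other 5, which matters because those arrays are what the compounds were set against. These were the lowest values of YPS3 (0.105), HXK1 (-2.93), HAP2 (-0.736) and TRP1 (0.555) and the highest of MF(ALPHA)2 (0.553), CIR2 (-0.935) and FIT3 (1.04). Of 57 genes examined 7 had such an array, and chance flags about 1 in 20.

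The effect of 2 copies against vector was compared between compounds on lone arrays. The mean of the 3 arrays differed from no compound for 458 probes. That count was 94 without compound 3 and 21 with every array divided by its spread. Compound 6 differed from the mean of 3 and 4 for 7 probes, of which only QDR2 recurred on the other arrays. On the other arrays that second difference was -1.58 for QDR2 and 1.04 for ZAP1.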

How the results depend on the processing

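No single gene's difference changed its sign under the alternatives tried. List medians were compared under scaling only, which multiplies each array by a positive factor and so cannot change their sign. The order of the compounds turned with scaling for the mitochondrial ribosome list and the 77 lower probes. Beside the counts of calls below, 724 comparisons with an alternative kept their side of the threshold or moved within the spread, 67 lost significance, and 31 list medians moved with the scaling. Probes called as shared (2469) became 1489 with each array divided by its median absolute deviation and 1502 to 1922 without 1 member. Probes called against no compound (458) became 2744 with all 93 arrays, 21 with that scaling, 1677 with array weights, 1021 in the joint fit and 264 fitted to 2-copy over vector arrays at 4 h alone; without 1 array they ranged from 94 to 481. Probes called for compound 6 against 3 and 4 (7, with 0 higher and 7 lower) became mostly higher in some: 203 with all 93 arrays (151 higher and 52 lower), 89 with weights (65 and 24) and 114 in the joint fit (83 and 31). They became 1 with scaling, 4 over probes matched to a gene, 3 at 4 h alone and 2 from the other sides of each loop; without compound 3 or 4 there were 4 to 5. From other arrays alone (2) there were 8 with 87 arrays, 0 with all 93 (limma; 417 at an unadjusted p under 0.05), 14 with scaling, 112 with weights, 1 with the replicate block, 12 with number 2 of compound 6 alone, and 1 to 2 without a replicate number; leaving out number 1 was not run, since it leaves compound 3 with no array. Pairs (10) became 83 with all 93 arrays and 4 with scaling, and each compound against no compound (219 in all) 5236 and 5. Ratios of at least 0.5 were reached by 1908 (compound 6), 1362 (compound 3) and 1372 (compound 4) probes, and of at least 2 by 81, 37 and 37. With the replicate number as a block, pairing same-numbered arrays, the first 3 counts were 2546, 457 and 7; MAL32 against no compound (0.82, adjusted p = 0.105) and ZAP1 on the other arrays (1.03, limma adjusted p = 0.0507) lost their calls. The alternative with single arrays of compound 6, and the other sides of each loop for the difference from no compound, were chosen after seeing the data. The setting with all 93 arrays puts back the 10 arrays left out as out of step, so it is not an alternative on like arrays. The cause of the shifts was not tested. The lone arrays limit the rest: no member has a replicate, doses are unknown, no dyes were swapped, and signal over background was not used here.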
